A study of Mus musculus with 32 samples.

Results

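The 10 genes described here mark reactive astrocytes, the state that these glial cells of the central nervous system enter after injury or in disease. They are Gfap and Vim (intermediate filaments), Lcn2, Serpina3n, Timp1 and Cp (secreted or plasma proteins), S1pr3, Cd44 and Osmr (cell surface receptors) and Steap4 (a metalloreductase). Members were taken as the non-control probes that carry the gene's name, which gave 19 of 41174 probes on the array. The array files name 9 of the genes as they are named here and list S1pr3 under its older name Edg3.

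The data come from female mice that carried 1 of 2 human transgenes and from their nontransgenic littermates. SOD1-G93A mice (B6SJL-Tg(SOD1-G93A)1Gur) express a mutant superoxide dismutase of familial amyotrophic lateral sclerosis and were taken with B6SJL controls at 8 weeks. TAU-P301L mice (B6D2F1-Tg(TAU-P301L)) express a mutant tau of frontotemporal dementia and were taken with B6D2F1 controls at 16 weeks. For each RNA extract, 500 cells of the lumbar anterior horn were captured by laser from Nissl-stained sections. They were either motor neurons or the glial cells around them, and their RNA was amplified and put on 2-colour arrays. Each of the 4 comparisons (SOD1-G93A motor neurons, SOD1-G93A glia, TAU-P301L motor neurons and TAU-P301L glia, each against control cells of the same kind) had 4 littermate pairs, and the RNA of a pair was put together on 2 arrays of opposite dye, 32 arrays in all. The models differ in strain, age and transgene together, so these cannot be told apart, and the promoter that drives the tau transgene is not given in the sources used here. Captures hold more than 1 cell type, and fewer cells of a type cannot be told apart from less RNA per cell.

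Reactive astrocytes enlarge their intermediate filament network, of which GFAP and vimentin are the main proteins. Cytokines of the oncostatin M, LIF and interleukin-6 family act through receptors that share the gp130 subunit (OSMR pairs with it) and through the kinase JAK and the transcription factor STAT3, which raises Gfap and several other members. LCN2, SERPINA3N, TIMP1 and ceruloplasmin are released by such cells, CD44 binds hyaluronan of the matrix, and S1PR3 answers to the lipid sphingosine 1-phosphate. Several members are also made elsewhere: Vim by endothelial cells, fibroblasts and activated microglia, Cd44 by leukocytes, and Timp1 by fibroblasts.

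Since STAT3 acts on several members, their promoters (RefSeq, GRCm38.p6, 250 bases before to 50 after the transcription start) were searched for its core motif TTCNNNGAA, which reads the same on both strands. The promoter table held 11 windows for the 10 members, with 2 for Cp. The motif was present in 2 of the 10 genes, Gfap and Steap4, against 2726 of 32851 promoters of the same length (8.3%), and its absence says only that these letters are not in the window. The promoters of Gfap (chr11:102897151-102897450, minus strand) and Steap4 (chr5:7960222-7960521, plus strand) are shown for the match, in capitals, and that of Vim (chr2:13574061-13574360, plus strand) as the member that varied most between pairs and has no match. The match of Gfap began at position -2 and that of Steap4 at position -116, counted from the start site.
Gfap: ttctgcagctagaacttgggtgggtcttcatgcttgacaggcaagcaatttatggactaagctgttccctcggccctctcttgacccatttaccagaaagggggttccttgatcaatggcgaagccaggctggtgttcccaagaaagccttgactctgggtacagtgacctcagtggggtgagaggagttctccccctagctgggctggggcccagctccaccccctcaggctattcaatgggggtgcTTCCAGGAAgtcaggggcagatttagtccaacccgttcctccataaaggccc
Steap4: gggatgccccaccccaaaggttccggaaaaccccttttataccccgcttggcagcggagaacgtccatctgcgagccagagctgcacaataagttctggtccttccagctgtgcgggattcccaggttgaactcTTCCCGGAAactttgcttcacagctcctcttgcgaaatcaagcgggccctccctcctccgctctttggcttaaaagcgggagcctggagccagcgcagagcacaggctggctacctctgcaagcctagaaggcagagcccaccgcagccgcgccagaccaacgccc
Vim: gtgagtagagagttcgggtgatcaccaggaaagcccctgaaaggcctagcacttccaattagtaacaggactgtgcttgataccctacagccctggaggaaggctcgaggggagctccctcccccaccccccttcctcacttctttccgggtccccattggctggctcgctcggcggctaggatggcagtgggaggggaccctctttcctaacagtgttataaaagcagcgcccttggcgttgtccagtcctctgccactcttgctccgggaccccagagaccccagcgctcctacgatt

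One array did not match its own design. On the array of SOD1-G93A motor neuron pair 3 with transgenic RNA in Cy3, spot signals had a Pearson correlation of -0.0099 with the dye-swapped array of the same RNA, against 0.85 or more for the 2 arrays of every other pair. When its grid was moved by 2 rows, the correlation rose to between 0.55 and 0.98 in all 24 of 24 blocks of the array, and its 14 bright corner spots had a median net signal of 0.61 intensity units against 982 on the dye-swapped array. Results on SOD1-G93A motor neurons are given as designed, with all arrays. Means of the tested members, counts of called genes and most list counts are also given without this array, with pair 3 then resting on its other array. That array held transgenic RNA in Cy5, so in pair 3 a dye effect no longer cancels and cannot be told apart from the transgene. Other values that involve these cells include the array unless stated otherwise. Among them are single genes of the other lists, most control levels and the differences between comparisons. Their pair 3 rests in part on spots out of register. Over all 16 pairs, the 2 ratios of a pair, both turned to transgenic over control, correlated between -0.80 and 0.72 over probes well above background. In 6 of the 16 pairs, this one among them, the correlation was below 0. The others were SOD1-G93A glia pairs 1 (-0.017) and 2 (-0.55), TAU-P301L motor neuron pair 3 (-0.21) and TAU-P301L glia pairs 1 (-0.80) and 3 (-0.068). Motor neuron and glia arrays were scanned on different days and with different software versions (8.5.1.1 and 9.5.1.1), so cell type and scan cannot be told apart; within each comparison pairs came from 2 or 3 scans.

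The captures were first checked against cell type markers in the 16 control extracts, with levels as log2 normalized intensity. Motor neuron genes were higher in motor neurons than in glia for 6 of 10 tested, such as Snap25 (difference 2.27 ± 0.26 SE; limma adjusted p = 0.000106), Calca (2.29 ± 0.38), Nefm (1.67 ± 0.19) and Ache (0.55 ± 0.099). Mnx1, a motor neuron transcription factor, went the other way and was called higher in glia (-0.36 ± 0.095 SE; limma adjusted p = 0.00952). Astrocyte genes were higher in glia for 7 of 15, such as Gpr37l1 (difference -1.61 ± 0.30 SE; limma adjusted p = 0.0014), Glul (-1.60 ± 0.35), Mlc1 (-1.24 ± 0.25) and Gjb6 (-1.14 ± 0.25), and so were 6 of 10 oligodendrocyte genes, such as Mag (-1.76 ± 0.29). Astrocyte genes were present in both captures: 15 of 16 were well above background in most control motor neuron extracts and 13 of 16 in most control glia extracts. Trem2 was the microglial gene higher in glia (-0.70 ± 0.11), 1 of 10 tested. The background was 3590 of 9907 genes called between control motor neurons and control glia (36.2%), 2400 higher in motor neurons (24.2%) and 1190 in glia (12%), and without the array out of register 5048 of 10770 (46.9%).

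Most members were near the lower end of what these arrays measured. Of the 32 RNA extracts, the best probe of Vim was well above background on both arrays in 28, that of S1pr3 in 26 and that of Timp1 in 20. Cp and Osmr followed with 14 each, Gfap and Serpina3n with 12 each, and the 3 Cd44 probes with 9, 5 and 4. Lcn2 was well above background in 1 extract, as was 1 Steap4 probe, and the other Steap4 probe and the second Vim probe in none. A gene entered the test of a comparison where its brightest probe was well above background in at least 4 of 8 extracts: 6 members in SOD1-G93A motor neurons (Gfap, Vim, Timp1, Cp, S1pr3, Osmr), 4 in SOD1-G93A glia (Vim, Timp1, S1pr3, Osmr), 5 in TAU-P301L motor neurons (Vim, Serpina3n, Timp1, Cp, S1pr3) and 3 in TAU-P301L glia (Vim, Timp1, S1pr3). Ratios of dim probes are drawn toward 0 by the offset of 50 intensity units added in background correction, and with the offset alone set to 0 the members' median in SOD1-G93A motor neurons was 0.26 in place of 0.13.

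**Figure D1:**
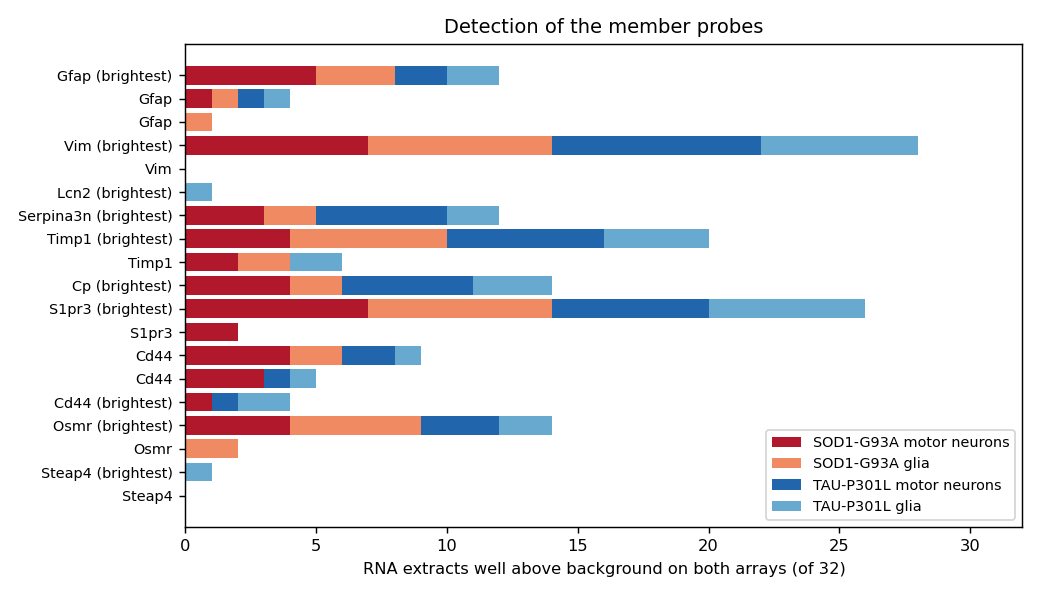
Bars give, for each of the 19 member probes, the number of the 32 RNA extracts in which the spot was well above background on both arrays, coloured by comparison. The brightest Vim probe reaches 28 extracts and S1pr3 26, while Lcn2 and Steap4 reach 1 at most.

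No member passed the test in any of the 4 comparisons, and neither did any other gene. In limma's fit over all 16 pairs, 0 genes passed an adjusted p of 0.05 (0%) out of 13261 for motor neurons and 10441 for glia of SOD1-G93A mice, and 11635 for motor neurons and 8899 for glia of TAU-P301L mice. At an unadjusted p under 0.05 the counts were 1244 (9.38%), 1558 (14.9%), 402 (3.46%) and 1150 (12.9%), and Gfap in SOD1-G93A motor neurons was the 1 member among them. With that 1 array left out, the count in SOD1-G93A motor neurons was again 0, now of 14223, with 1675 at an unadjusted p under 0.05 (11.8%).

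Described by their signs, the tested members were above 0 in 6 of 6 cases for SOD1-G93A motor neurons, 3 of 4 for SOD1-G93A glia, 4 of 5 for TAU-P301L motor neurons and 0 of 3 for TAU-P301L glia. Over all genes tested, 50.13%, 56.79%, 46.48% and 50.85% were above 0. The members' median log2 ratios were 0.13, 0.035, 0.019 and -0.037, beside medians over all genes of 0.00039, 0.017, -0.0060 and 0.0025. Without the array out of register, 7 members were tested in SOD1-G93A motor neurons, 6 of them above 0, with a median of 0.100. The members in each comparison come from the same arrays, so their signs are not independent of each other. Single pairs moved these medians: without pair 1 that of SOD1-G93A motor neurons was 0.011 (range 0.011 to 0.21 over the 4 pairs left out in turn) and that of SOD1-G93A glia -0.054 (range -0.054 to 0.13), and without pair 3 that of TAU-P301L glia was 0.0091.

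Cell type lists differed in how far they moved beside the members in SOD1-G93A motor neurons. Oligodendrocyte genes were above 0 in 11 of 11 cases with a median of 0.13, microglial genes in 9 of 11 with a median of 0.023, and motor neuron genes in 3 of 13 with a median of -0.21. When that array was left out, the counts were 11 of 11 (median 0.19), 10 of 11 (0.064) and 4 of 14 (-0.19). With all arrays, astrocyte genes were above 0 in 9 of 15 cases (median 0.069) and endothelial and pericyte genes in 4 of 8 (0.017). Fibroblast and meningeal genes were above 0 in 5 of 6 (0.058). Without the array these were 9 of 15 (0.060), 5 of 8 (0.051) and 5 of 6 (0.13). None of these genes passed limma's threshold, and the part of the captured cell mixture in the members' values was not tested.

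**Figure D2:**
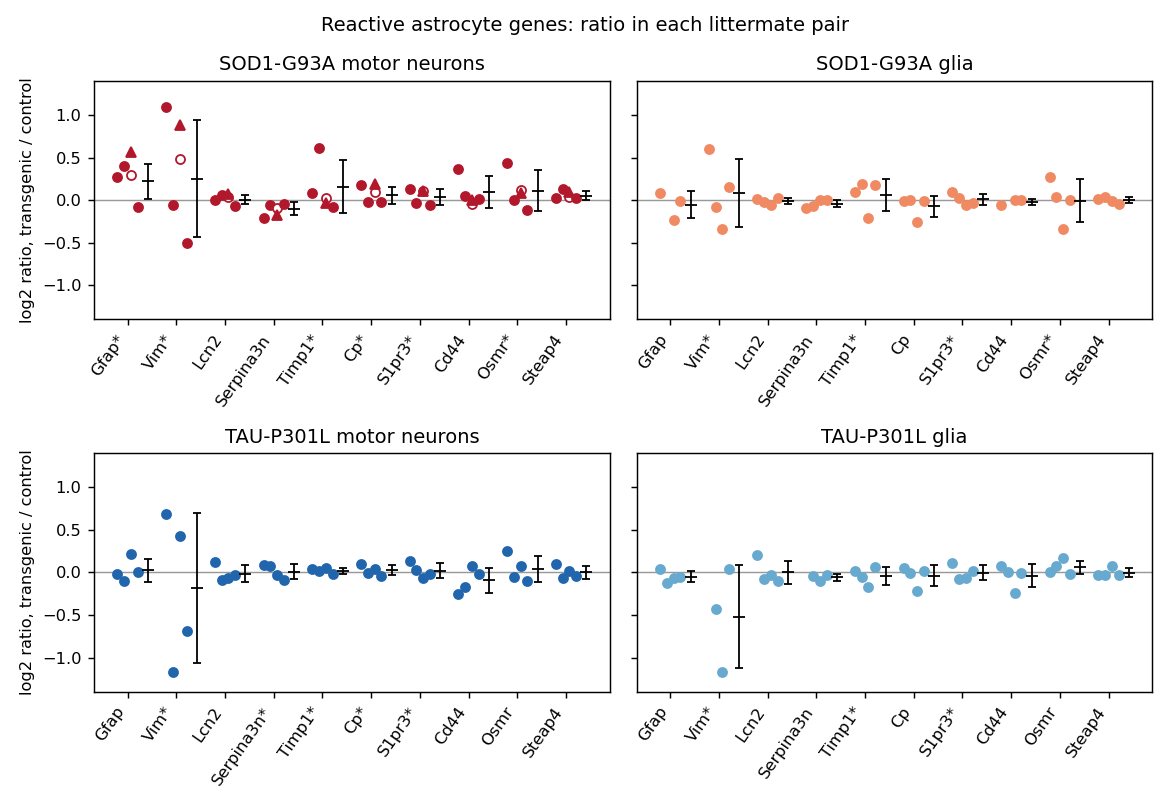
Each point is the log2 ratio of transgenic over control of 1 littermate pair for the brightest probe of each member, the bars give mean ± SD over the pairs, and asterisks mark members tested in that comparison. The open point is SOD1-G93A motor neuron pair 3 with both arrays and the triangle the same pair without the array out of register. Vim spans from 1.09 to -1.17, and the other members lie closer to 0.

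Gfap, the main filament protein of astrocytes, had the smallest p of the members, in SOD1-G93A motor neurons. Its log2 ratios in pairs 1 to 4 were 0.27, 0.40, 0.29 and -0.080, so that 3 of 4 pairs were above 0. The control extracts lay between 6.02 and 6.11 and the transgenic ones at 6.29, 6.45, 6.38 and 6.03, and only the transgenic extract of pair 4 was within the control range. The mean was 0.22 ± 0.072 (SE; 1.16-fold, 95% interval 0.064 to 0.38), and limma's adjusted p was 0.478. From its other array alone, with no dye swap, pair 3 was at 0.56 and the mean at 0.29 ± 0.084 (SE; 1.22-fold, 95% interval 0.11 to 0.47; limma adjusted p = 0.302). The result rests on 1 of 3 Gfap probes, which lies at chr11:102706589-102706648 (mm8, minus strand); in which exon or intron it falls was not analysed here. The other Gfap probes, well above background in 1 and 4 of 32 extracts, had mean ratios of 0.099 ± 0.046 (SD, n = 4) and 0.019 ± 0.030 (SD, n = 4).

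In the other comparisons Gfap was too dim to be tested. Its ratios in SOD1-G93A glia were 0.081, -0.23 and -0.015, with pair 2 left out because a spot was marked as an outlier. In TAU-P301L mice they were -0.014, -0.098, 0.21 and 0.0037 for motor neurons, and 0.042, -0.12, -0.067 and -0.054 for glia. Both sides of 0 were thus represented in each of them. The Gfap ratio in SOD1-G93A motor neurons exceeded that in SOD1-G93A glia by 0.27 ± 0.11 (SE, 95% interval 0.037 to 0.51), with a limma adjusted p of 0.337, and that in TAU-P301L motor neurons by 0.19 ± 0.10 (SE; limma adjusted p = 0.595). For both differences 0 genes passed the threshold (0% called). A gene entered a difference where either side was tested, and Gfap did so through SOD1-G93A motor neurons alone. On the other side it was well above background in 3 of 8 extracts of SOD1-G93A glia and 2 of 8 of TAU-P301L motor neurons. No difference between cell types or models is therefore read from these values. By scan, the SOD1-G93A motor neuron ratio was 0.33 over pairs 1 and 2 and 0.11 over pairs 3 and 4. The second value holds the array out of register, without which pair 3 was at 0.56 in place of 0.29. The size of the mean Gfap ratio in SOD1-G93A motor neurons depended on the processing. It was 0.78 from the scanner's processed signals and 0.11 as a mean over the 3 probes. Limma's adjusted p was 0.161 or more under every alternative tried.

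Vim, which encodes vimentin, was the member seen in most extracts and the one that differed most between pairs. Its log2 ratios in SOD1-G93A mice were 1.09, -0.055, 0.48 and -0.51 for motor neurons, and 0.61, -0.077, -0.34 and 0.15 for glia. In TAU-P301L mice they were 0.69, -1.17, 0.43 and -0.69 for motor neurons, and -0.43, -1.17 and 0.040 for glia, with pair 1 missing. Each comparison thus held pairs on both sides of 0. The SD over pairs was 0.69, 0.40, 0.89 and 0.61, larger than that of 98.3%, 92.6%, 99.7% and 99.0% of the tested genes in the same comparison. The means were 0.25 ± 0.30 (SE, 95% interval -0.40 to 0.91), 0.086 ± 0.30 (-0.57 to 0.74), -0.18 ± 0.30 (-0.84 to 0.47) and -0.52 ± 0.35 (-1.28 to 0.24). Intervals of this width do not show that Vim was alike in transgenic and control cells. Limma's adjusted p was 0.813, 0.949, 0.998 and 0.606.

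Leaving out single pairs turned the sign of the Vim mean: to -0.027 in SOD1-G93A motor neurons without pair 1, to -0.088 in SOD1-G93A glia without pair 1, and to 0.14 in TAU-P301L motor neurons without pair 2. In TAU-P301L glia the mean stayed below 0, between -0.80 without pair 4 and -0.19 without pair 3. Without the array out of register SOD1-G93A motor neuron pair 3 was at 0.89 and the mean at 0.35 ± 0.32 (SE; limma adjusted p = 0.688). The 4 differences between comparisons in the Vim ratio lay between 0.17 and 0.61, with limma adjusted p from 0.767 to 0.999 and 0% of genes called. The probe lies at chr2:13500458-13500517 (mm8, plus strand).

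**Figure D3:**
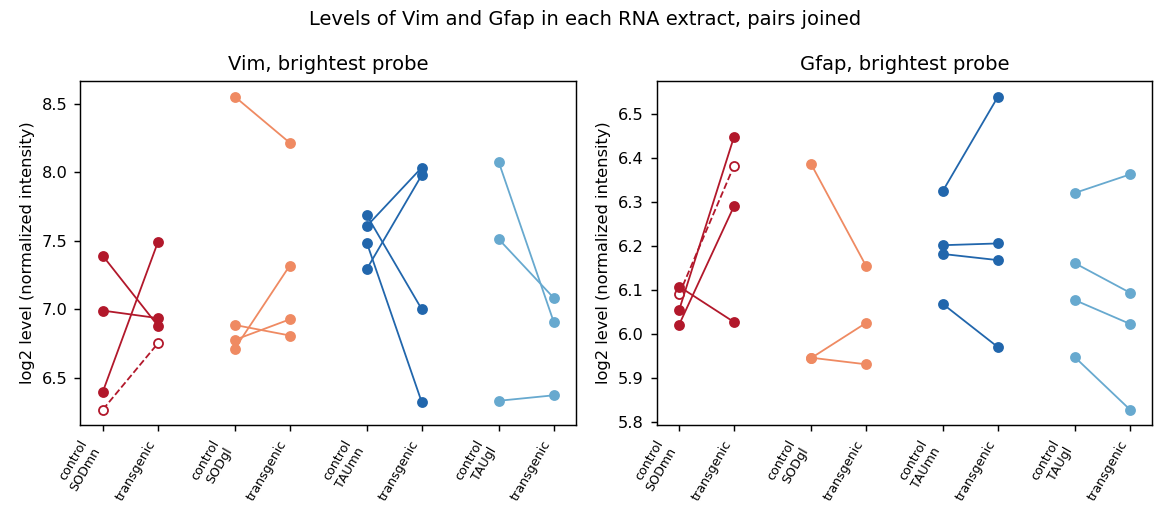
Points are log2 normalized intensities of the brightest Vim and Gfap probes in each RNA extract, with the control and transgenic extract of a pair joined, and open points and the dashed line mark SOD1-G93A motor neuron pair 3. Vim lines run in both directions in every comparison, and in SOD1-G93A motor neurons 3 of 4 Gfap lines run upward from controls between 6.02 and 6.11.

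The Vim ratio moved from pair to pair with those of cell type lists, which are described here with no test. Over the 15 pairs with a Vim value, its Pearson correlation with the mean ratio of the tested genes of each list was 0.83 for microglia, 0.79 for fibroblast and meningeal genes, 0.75 for astrocytes, 0.61 for endothelial cells and pericytes, 0.31 for oligodendrocytes and -0.46 for motor neurons. Leaving out the array gave 0.85, 0.80, 0.76, 0.63, 0.40 and -0.49. For the lists of reactive genes described below, r was 0.733 for inflammation, 0.513 for filament partners, 0.491 for ischaemia and 0.262 for further pan-reactive genes. It was 0.263 for the gp130 and STAT3 pathway and 0.0285 for partners of the members. Without the array these were 0.725, 0.556, 0.548, 0.31, 0.0611 and 0.191. In SOD1-G93A motor neuron pair 1, where Vim was at 1.09, the fibroblast list was at 1.26 and the motor neuron list at -0.39. In TAU-P301L glia pair 3, where Vim was at -1.17, the fibroblast list was at -0.92 and the microglia list at -0.13. All points share arrays and dye exchange with Vim, and the part of captured cell mixture in the Vim values was not tested.

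**Figure D4:**
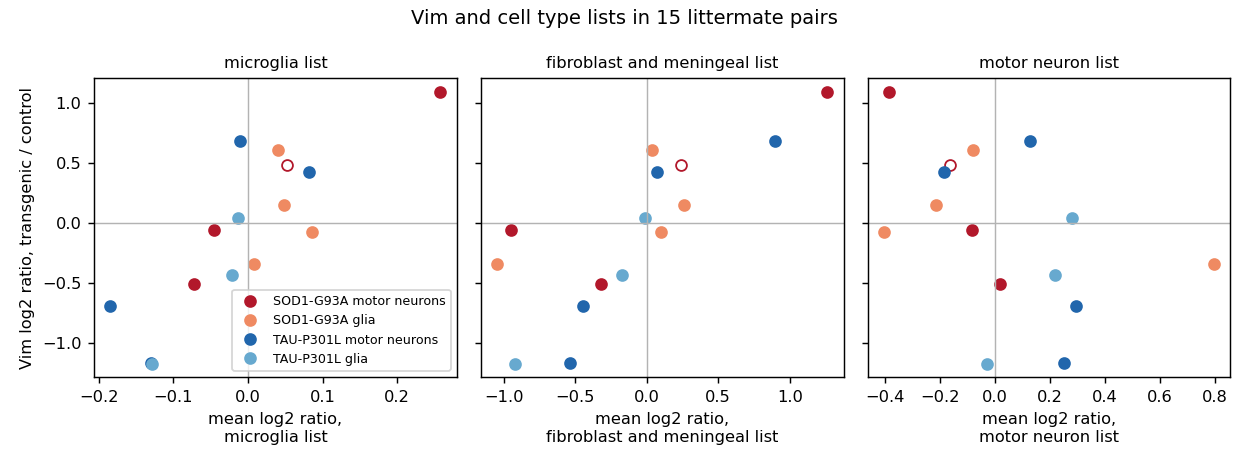
Each point is 1 of 15 littermate pairs, with the log2 ratio of Vim on the vertical axis and the mean log2 ratio of the tested genes of a cell type list on the horizontal axis; the open point is SOD1-G93A motor neuron pair 3. Vim runs upward with the microglia list (r = 0.83) and the fibroblast list (r = 0.79) and downward with the motor neuron list (r = -0.46).

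Outside the lists, the genes whose ratio was most like that of Vim were Ctss (r = 0.91), Fxyd6 (0.91), S100a6 (0.91), Fabp7 (0.90) and Celf2 (0.90), over 14 or 15 pairs; this comparison was added after the values of Vim were seen. For Gfap, among 7964 genes tested in all 4 comparisons, they were Arhgap33 (r = 0.94), Id4 (0.86), Efemp2 (0.84), Ulk2 (0.82) and 4833411C07Rik (0.82). When that array was left out, Arhgap33 (0.96) and Ulk2 (0.88) stayed among the first 5, and Id4 (0.72) and Efemp2 (0.66) did not. Between members, Gfap and Timp1 had the highest correlation of the ratios with all arrays (r = 0.72, 15 pairs), followed by Vim and Cp (0.68), which led without the array (0.72).

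Of the secreted members, Timp1, an inhibitor of matrix metalloproteinases, was the best measured. In SOD1-G93A motor neurons its ratios were 0.083, 0.61, 0.028 and -0.081, with pair 2 far above the others, and the mean was 0.16 ± 0.089 (SE, 95% interval -0.031 to 0.35; limma adjusted p = 0.583). Without pair 2 the mean was 0.010. In TAU-P301L motor neurons the ratios lay between -0.021 and 0.048, a smaller SD than that of all but 3.04% of tested genes. Means in SOD1-G93A glia and TAU-P301L glia were 0.062 ± 0.089 and -0.037 ± 0.089 (SE), with limma adjusted p of 0.841 and 0.93. The second Timp1 probe, well above background in 6 extracts, had means between -0.081 and -0.016 in the 4 comparisons.

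Serpina3n, a serine protease inhibitor from a family of close paralogs, was tested in TAU-P301L motor neurons alone, with ratios of 0.088, 0.079, -0.035 and -0.092 and a mean of 0.010 ± 0.040 (SE; limma adjusted p = 0.998). In the 3 comparisons where it was too dim to test, every measured pair was below 0. The ratios were -0.21, -0.057, -0.096 and -0.042 for motor neurons and -0.094, -0.064, -0.0022 and -0.0040 for glia of SOD1-G93A mice, and -0.035, -0.10 and -0.028 in TAU-P301L glia. Among tested genes with 4 measured pairs, 13.6% had 1 sign in all 4 for SOD1-G93A motor neurons, 21.9% for SOD1-G93A glia and 21.2% for TAU-P301L glia. Serpina3n was dimmer than the tested genes, so these shares are a rough background. In TAU-P301L glia it had 3 measured pairs, and the share over 4 pairs does not apply to it there.

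Cp, the copper-carrying ferroxidase ceruloplasmin, had ratios of 0.17, -0.022, 0.096 and -0.025 in SOD1-G93A motor neurons (mean 0.056 ± 0.054 SE; limma adjusted p = 0.758) and a mean of 0.024 ± 0.054 (SE; limma adjusted p = 0.998) in TAU-P301L motor neurons. It was below 0 in all 4 pairs of SOD1-G93A glia, from -0.26 in pair 3 to -0.00053, and was not tested there. Lcn2, the iron-siderophore carrier lipocalin 2, was well above background in 1 of 32 extracts. Its ratios lay between -0.095 and 0.21 over all 16 pairs, and no direction is read from them.

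Among the receptors, S1pr3 was measured in all 4 comparisons and stayed close to 0. Its means were 0.038, 0.0074, 0.022 and -0.0022 (SE 0.046 each), with single pairs between -0.079 and 0.14. The 95% intervals together spanned -0.10 to 0.14. Their width depended on the processing: from the scanner's processed signals the mean in SOD1-G93A motor neurons was 0.12 ± 0.16 (SE). In SOD1-G93A motor neuron pair 3 the levels of S1pr3 were 9.25 (control) and 9.36 (transgenic), against 6.50 to 6.79 in the other extracts of that comparison. They came from the array out of register, on which the mean net signal was 2289 intensity units against 48.2 on the dye-swapped array, and without it the extracts were at 6.43 and 6.53. The brightest probe of Cd44 behaved likewise, with 8.07 and 8.02 in that pair, and 5.81 and 5.82 without the array.

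Cd44 was not tested with all arrays, since its brightest probe was well above background in at most 2 of 8 extracts of any comparison. The most often detected of its 3 probes, at chr2:102635102-102635161 (mm8, minus strand), had ratios of -0.073, -0.072, -0.058 and -0.077 in SOD1-G93A motor neurons. Without the array out of register it became the brightest probe, pair 3 moved to 0.0032, and it was tested there, with a mean of -0.055 ± 0.032 (SE; limma adjusted p = 0.505), while the brightest probe with all arrays had a mean of 0.097 ± 0.19 (SD, n = 4). The 2 probes thus had opposite signs. Without the array the other tested means in SOD1-G93A motor neurons were 0.14 for Timp1, 0.100 for Osmr, 0.078 for Cp and 0.037 for S1pr3, with limma adjusted p from 0.54 to 0.785. Osmr, the receptor for oncostatin M, had ratios of 0.44, -0.0034, 0.12 and -0.12 for motor neurons of SOD1-G93A mice, and 0.27, 0.033, -0.34 and 0.0056 for glia. The means were 0.11 ± 0.092 and -0.0059 ± 0.092 (SE), with limma adjusted p of 0.716 and 0.99, and the first was -0.00080 without pair 1. Its second probe had means between -0.069 and 0.023.

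Steap4, which reduces iron and copper at membranes, was well above background in 1 of 32 extracts by its brighter probe. Its ratios in SOD1-G93A motor neurons were 0.024, 0.13, 0.032 and 0.020, all above 0, but within the range in which the spots were not distinguished from background. Those of its other probe were -0.024, -0.031, -0.055 and 0.031.

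The other genes that astrocytes raise when reactive also held no call in the 4 comparisons (0% of all genes called). Of 5 further pan-reactive genes, 2 of 4 tested were above 0 for SOD1-G93A motor neurons, 0 of 3 for SOD1-G93A glia, 2 of 4 for TAU-P301L motor neurons and 0 of 2 for TAU-P301L glia. Nes, the filament protein nestin, had mean ratios of 0.25 ± 0.14, -0.39 ± 0.14, -0.12 ± 0.14 and -0.49 ± 0.14 (SE), and it was below 0 in all pairs of both glia comparisons, with limma adjusted p of 0.185 and 0.221. The heat shock protein gene Hspb1 was at -0.24 ± 0.079 (SE) in SOD1-G93A motor neurons, where limma's adjusted p was 0.478. Among filament partners, Synm (synemin) was at 0.33 ± 0.13 (SE; limma adjusted p = 0.218) in SOD1-G93A glia, above 0 in 4 of 4 pairs, and Plec (plectin) lay between -0.048 and 0.12 in the 4 comparisons.

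Genes listed for astrocytes reacting to inflammation were above 0 in 5 of 7, 4 of 7, 2 of 7 and 0 of 3 cases in the same order, with medians of 0.021, 0.0027, -0.031 and -0.094. The complement gene C3 was at 0.74 ± 0.43 (SE; limma adjusted p = 0.59) in SOD1-G93A motor neurons, above 0 in 3 of 4 pairs, and at -0.19 ± 0.43 in TAU-P301L glia. Genes listed for ischaemia were above 0 in 2 of 4, 1 of 3, 3 of 4 and 1 of 4 cases. Of these S100a10, an annexin partner, was at -0.37 ± 0.13 (SE; limma adjusted p = 0.486) in SOD1-G93A motor neurons, below 0 in all 4 pairs. It was at 0.41 ± 0.13 (limma adjusted p = 0.259) in TAU-P301L glia, above 0 in 3 of 4. Of tested genes in SOD1-G93A motor neurons, 13.6% had 1 sign in all 4 pairs. The C3 and S100a10 values in those cells include the array out of register.

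In the gp130 and STAT3 pathway, 6 of 10, 6 of 8, 5 of 10 and 5 of 7 tested genes were above 0, with medians of 0.012, 0.018, -0.0046 and 0.053, and none passed. The interleukin-6 receptor gene Il6ra was at 0.37 ± 0.16 (SE; limma adjusted p = 0.525) in SOD1-G93A motor neurons, and Il6st, which encodes gp130, at -0.15 ± 0.051 (limma adjusted p = 0.277) in TAU-P301L glia, below 0 in all pairs. Genes listed as partners or relatives of the members were above 0 in 6 of 16, 7 of 11, 5 of 15 and 3 of 11 cases. Mmp14, a membrane protease of the matrix metalloproteinase family, was below 0 in all pairs of both glia comparisons. It was at -0.70 ± 0.20 (SE, limma adjusted p = 0.103) in SOD1-G93A glia and -0.42 ± 0.20 (limma adjusted p = 0.389) in TAU-P301L glia. Without the array out of register, the counts above 0 in SOD1-G93A motor neurons were 1 of 4 pan-reactive, 6 of 7 inflammation, 3 of 5 ischaemia, 6 of 10 gp130 and STAT3 and 8 of 17 partner genes, and 0 passed. Sphk1, a kinase that makes the S1PR3 ligand, was at 0.14 ± 0.065 (SE; limma adjusted p = 0.53) in SOD1-G93A motor neurons, above 0 in 4 of 4 pairs. Of tested genes there, 13.6% had 1 sign in all 4 pairs. The Sphk1 and Il6ra values include the array out of register.

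Markers of resting astrocytes, which bear on how much astrocyte RNA an extract held, did not pass either. In motor neurons 9 of 15 were above 0 in SOD1-G93A mice (median 0.069) and 7 of 15 in TAU-P301L mice (median -0.018). In SOD1-G93A glia 13 of 15 were above 0 with a median of 0.070, and in TAU-P301L glia 1 of 15 with a median of -0.16. The glutamate transporter gene Slc1a2 was at 0.60 ± 0.25 (SE; limma adjusted p = 0.269) in SOD1-G93A glia and at -0.55 ± 0.25 (limma adjusted p = 0.371) in TAU-P301L glia. The Vim means in glia of 0.086 and -0.52 had the same signs, but the first was -0.088 without pair 1. Tested members were above 0 in 3 of 4 cases in SOD1-G93A glia and 0 of 3 in TAU-P301L glia. Members too dim to test in SOD1-G93A glia (Gfap, Lcn2, Serpina3n, Steap4, Cd44 and Cp) all had means below 0. In TAU-P301L glia the untested Lcn2 and Osmr were above 0 and the other untested members below. The part of the amount of astrocyte RNA in the members' values was not tested.

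Between control motor neurons and control glia, 3 members were bright enough for a test, and none passed, beside 3590 of 9907 genes (36.2%). From so few members no departure from that share is read. Vim ranged from 6.27 to 7.69 (median 7.34) in motor neurons and from 6.33 to 8.55 (median 6.88) in glia, so that the ranges overlapped, with a difference of -0.16 ± 0.31 (SE, 95% interval -0.81 to 0.50; limma adjusted p = 0.712). Timp1 ranged from 6.14 to 6.56 and from 6.05 to 6.83, with a difference of -0.019 ± 0.13 (SE; limma adjusted p = 0.919). S1pr3 differed by 0.40 ± 0.31 (SE; limma adjusted p = 0.325), and by 0.048 ± 0.11 (limma adjusted p = 0.737) without the array out of register. Osmr, tested only without that array, differed by 0.11 ± 0.10 (SE; limma adjusted p = 0.389), where 46.9% of all genes were called.

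Gfap was well above background in 3 of 8 control motor neuron extracts and in 3 of 8 control glia extracts. Its levels, 6.02 to 6.33 in motor neurons and 5.95 to 6.39 in glia, overlapped. By the brightest probe, Serpina3n was well above background in 5 and 2 control extracts of motor neurons and glia. Osmr was so in 4 and 3, Cp in 4 and 2, Cd44 in 1 and 1, and Lcn2 and Steap4 in 0 and 0. That Cd44 probe was the brightest only with the array out of register. The most often detected Cd44 probe counted 2 (SOD1-G93A colony) and 1 (TAU-P301L colony) control motor neuron extracts. In control glia it counted 1 and 0. Over all probes, 15.98% to 51.56% were well above background in single control motor neuron extracts, and 8.47% to 59.93% in control glia. No difference between cell types is read from these detection counts. Nes, by contrast, was higher in control glia (-1.13 ± 0.26 SE; limma adjusted p = 0.00406), and Stat3 (1.13 ± 0.26; 0.00419), Socs3 (0.29 ± 0.11; 0.0473) and Hspb1 (0.59 ± 0.14; 0.00434) were higher in control motor neurons. Among partners Spp1, a CD44 ligand, was higher in motor neurons (1.69 ± 0.38; 0.00448), and S1pr5 (-0.59 ± 0.15; 0.00754), Fth1 (-0.63 ± 0.17; 0.0112) and Mmp14 (-1.20 ± 0.39; 0.025) were higher in glia, where each second value is limma's adjusted p.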

How the data were processed

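Intensities of 2-colour Agilent 44K arrays were deposited as scanner output made with Agilent Feature Extraction 8.5.1.1 per the submitters' processing notes (9.5.1.1 per the file headers for glia arrays). The deposited value table of the series was taken as log10 ratios, since each array's column correlated with the log10 ratio in its scanner file turned to transgenic over control (r = 0.982 or more). With limma 3.58.1 (R 4.3.3), mean signals were corrected by normexp (offset 50) and loess-normalized within arrays; outlier-marked spots were left out, ratios were turned to transgenic over control, and the 2 arrays of a pair were averaged. A gene took its brightest probe and was tested where this was well above background on both arrays in 4 of 8 extracts (8 of 16 for control levels, which used Aquantile and a colony covariate). One fit held all 16 pairs; p was adjusted by Benjamini-Hochberg within each comparison (threshold 0.05). Littermate pairs are biological replicates per the labels. The number of arrays limits the precision. The fit was tested on simulated data.

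The members and all gene lists were chosen with earlier results of these data known. By rule, the text names every member, the genes with the smallest p in the other lists (up to 2 per comparison, 4 between control cells) and the 5 genes most like Gfap; not all of those are printed. Of the probes, 23374 were named by accession, 6733 by symbol and 2919 by synonym, and 8148 were not named. Alternatives changed the background correction, filter, probe rule, scaling, scan block and pairs used; an offset of 0 and leaving out the array out of register were added after the data were seen. Probe sequences were not used here.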

Additional observations from a re-analysis of the deposited data

Results flagged for a closer look

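Within groups of 4, a value that stood apart from the other 3 by Dixon's test was found for 3 of 36 sets of member ratios and 10 of 72 sets of member levels; chance gives about 1 in 20. Values are log2 throughout.

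Of the levels in SOD1-G93A motor neuron pair 3, S1pr3 stood at 9.25 in the control (others 6.56 to 6.65) and 9.36 in the transgenic extract, and Cd44 at 8.07 and 8.02. In the same pair Timp1 stood low at 6.14 in the control (others 6.39 to 6.43) and Lcn2 high at 6.16 in the transgenic extract. This is the pair with the array out of register, and without that array the control levels of S1pr3, Cd44 and Timp1 were 6.43, 5.81 and 6.46.

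The Vim level of control glia pair 3 in the SOD1-G93A colony was 8.55, against 6.71 to 6.88 in the other 3 controls. Other levels that stood apart were Timp1 at 6.75 in transgenic extract 2 of TAU-P301L glia, Cd44 at 6.60 in control extract 4 and Cp at 6.12 in control extract 1 of the same comparison.

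Of the ratios, Steap4 stood at 0.13 in SOD1-G93A motor neuron pair 2 (others 0.020 to 0.032) and at 0.076 in TAU-P301L glia pair 3 (others -0.032 to -0.029), with spots mostly not well above background. Cp stood at -0.26 in SOD1-G93A glia pair 3, against -0.015 to -0.00053 in the others.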

How the results depend on the processing

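No member passed limma's threshold under any alternative tried. In SOD1-G93A motor neurons the count of called genes was 19 without background correction and 1 each with no filter or with scaling between arrays, and in SOD1-G93A glia 5 with scan as a random block. Leaving out single pairs gave 0 to 1 called genes in SOD1-G93A motor neurons, SOD1-G93A glia, TAU-P301L glia and 3 of the differences between comparisons. Between control cells the count was 175 with a filter in all 16 extracts, 7302 with no filter, 482 in the SOD1-G93A colony alone, 1398 in the TAU-P301L colony alone and 2989 to 4367 without single replicates; fewer genes or samples were tested in most of these.

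Signs turned mostly for means near 0, and the cause was not tested. Serpina3n in TAU-P301L motor neurons was -0.0070 without background correction and -0.0083 with scaling. Osmr in SOD1-G93A glia was 0.13 from processed signals, 0.21 in the deposited value table and 0.097 with an offset of 0. S1pr3 was -0.067 and -0.083 from the first 2 of these in TAU-P301L motor neurons, -0.011, -0.0072 and 0.020 as a mean over probes in SOD1-G93A motor neurons, SOD1-G93A glia and TAU-P301L glia, and -0.0013 with scaling in SOD1-G93A glia. Without pairs of negative dye-swap correlation, Vim (-0.093), S1pr3 (-0.045) and Timp1 (-0.017) turned in SOD1-G93A glia, Timp1 in TAU-P301L glia (0.0034), and the Vim difference between TAU-P301L motor neurons and glia (-0.19). Between control cells Vim was 0.15 from processed signals, 0.21 in the TAU-P301L colony and 0.089 in transgenic extracts, and Timp1 was 0.022 with quantile scaling, 0.14, 0.058 and, without the array out of register, 0.020.

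Means without single pairs ranged for Vim from -0.027 to 0.51, -0.088 to 0.23, -0.47 to 0.14 and -0.80 to -0.19 in SOD1-G93A motor neurons, SOD1-G93A glia, TAU-P301L motor neurons and TAU-P301L glia, and from -0.11 to 0.42 for its difference between the first 2. They ranged for Osmr from -0.00080 to 0.18 and -0.099 to 0.10 in the SOD1-G93A comparisons, for S1pr3 from -0.021 to 0.029, -0.016 to 0.051 and -0.041 to 0.023 in SOD1-G93A glia, TAU-P301L motor neurons and TAU-P301L glia, for Serpina3n from -0.016 to 0.044 and for Cp from -6.9e-05 to 0.045 in TAU-P301L motor neurons, and for Timp1 from -0.070 to 0.0091 in TAU-P301L glia. Between control cells the ranges were -0.39 to 0.091 for Vim and -0.078 to 0.042 for Timp1.

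With the replicate number as a block, 0 genes passed in each difference and 3133 between control cells, and the Gfap difference between SOD1-G93A motor neurons and glia was 0.22; the Vim differences were 0.17 (SOD1-G93A motor neurons and glia), 0.044 (TAU-P301L motor neurons and glia), 0.44 (motor neurons of the 2 models) and 0.31 (glia). Motor neuron and glia samples of the same number had correlations of -0.12 to 0.29 for ratios and -0.053 to 0.52 for control levels. Not every one was over 0.1, so the numbers were not taken to pair the samples, and the labels do not say whether they share mice. Most members lay close to background, which limits the precision of their ratios.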
